A study of Arabidopsis thaliana with 4 samples.

Results

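The 33 genes described here are the chloroplast-encoded genes of the photosynthetic machinery whose symbols begin with *psa*, *psb*, *pet* or *atp*, together with *rbcL*. They were chosen by symbol and by their place on the plastid genome, with no measured value used, from the probe sets that are listed with 1 gene. All 33 protein-coding genes of the RefSeq gene table that meet this rule had a probe set with values, out of 69 chloroplast-encoded genes measured and 21754 genes or probe sets tested. The samples were aerial parts of *Arabidopsis* seedlings (accession Col-0) grown aseptically on sucrose-containing solid medium at 22 °C under 16 h light and 8 h dark, and harvested 2 weeks after germination. The wild type (WT) was compared with *aln-1*, a T-DNA insertion line of *ALLANTOINASE* (*ALN*), which encodes the enzyme that degrades allantoin in purine catabolism. Each genotype had 2 Affymetrix ATH1 arrays, the mutant is a single line, and no complemented line was among the arrays.

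In plant cells, the photosynthetic complexes of the thylakoid membrane are mosaics. The plastid genome encodes mostly the reaction centre proteins and other core membrane subunits, and the nucleus encodes the antenna proteins and most peripheral subunits. Plastid genes are grouped in operons, as in bacteria, and their long primary transcripts are cut and trimmed into shorter RNAs. Transcription depends on a bacterial-type polymerase with plastid-encoded core subunits and on nuclear-encoded phage-type polymerases, while much of the control of transcript levels lies in RNA processing and stability. The labelling kit used for these arrays primes cDNA from poly(A), whereas most plastid mRNAs carry no lasting poly(A) tail, so a score reports the part of a transcript pool that was labelled. The part that this plays in the results was not tested.

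The measured quantity was the score that the authors deposited for each probe set and array, a value standardised to a lognormal model of the array. Neither the methods nor the file names a base of the logarithm, so differences are given in deposited units, as *aln-1* minus WT, and no fold change is given. Scores of different probe sets are not compared with each other as transcript levels. In WT the *ALN* probe set scored 0.367 and 0.442, and in the mutant it scored -0.0466 and 0.00508, a difference of -0.426 (adjusted p = 0.0116 from limma), which checks the labels as far as these probes report the disrupted transcript. Array medians ran from 0.155 to 0.174, the lowest scores from -1.01 to -0.625 and the highest from 2.85 to 3.08. Across genes, the correlation was 0.981 between the *aln-1* arrays and 0.987 between the WT arrays, and 0.901 to 0.947 between genotypes. Nothing in the sources says that the 2 arrays of a genotype came from separate cultures, and p-values therefore rest on a spread between arrays that may be purely technical.

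WT replicate 1 stood apart from the other 3 arrays in the RNA controls that are added in fixed amounts. It had the highest score for all 18 hybridization control probe sets (bioB, bioC, bioD and cre) and for all 24 poly(A) control probe sets (dap, lys, phe and thr). For the hybridization controls the array medians were 0.941 and 0.946 in *aln-1* against 1.14 and 0.989 in WT, a difference between genotypes of -0.12. For the poly(A) controls they were -0.0435 and -0.107 against 0.224 and -0.047, a difference of -0.164. These gaps are of the same size as many differences of the chloroplast genes below, so the results that matter are also given without this array or after centring the arrays on the hybridization controls. The 3′ minus 5′ difference, which rises when RNA or cDNA is shortened, was 0.955 and 1.17 for actin in *aln-1* against 0.0342 and -0.13 in WT. For GAPDH it was 0.193 and 0.257 against 0.316 and 0.285, and for ubiquitin -0.0194 and 0.0381 against -0.0881 and -0.141. A second set of control probe sets covers the same genes. Its actin 3′ scores were 1.89 and 1.87 in *aln-1* against 1.2 and 1.25, with 5′ scores of 0.177 and 0.0396 against 0.0998 and 0.0218. Its ubiquitin went the opposite way to the first set, with 3′ scores of 2.17 and 2.11 against 2.19 and 2.16 and 5′ scores of 2.16 and 2.08 against 1.9 and 1.97. Its GAPDH 3′ scores were 2.16 and 2.2 against 2.32 and 2.25, without overlap. Its GAPDH 5′ scores, 1.22 and 1.15 against 1.15 and 1.3, overlapped between genotypes. Actin thus had a wide gap in both sets, and ubiquitin differed between them. The part of RNA quality in the results was not tested.

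Chloroplast-encoded photosynthesis genes mostly had lower scores in *aln-1*, with *petL* and *psaJ* furthest down, while the genes of the *psbE*-*psbF*-*psbL*-*psbJ* operon had higher scores. Differences were below 0 for 26 of the 33 genes (78.8%, with 60.1% over everything tested) and ran from -0.52 for *psaJ* to 0.197 for *psbE*. At an adjusted p under 0.05 from limma, 6 genes fell (*petL*, *psaJ*, *atpI*, *psbH*, *atpA* and *psaI*) and 0 rose. The 6 are 18.2% of the genes, where 8.17% of everything tested was called lower and 7.42% higher. At an unadjusted p under 0.05, 13 were lower and 3 (*psbE*, *psbF* and *psbL*) were higher. The background shares at that threshold were 20.8% lower and 14.5% higher. Both *aln-1* arrays lay below both WT arrays for 20 of the 33 genes (60.6%, with 41.4% over everything tested), and above them for 4 (12.1%, with 25.4% over everything tested). The median difference was -0.158, beside -0.032 over everything tested. Leaving out WT replicate 1 gave -0.101, and leaving out WT replicate 2 gave -0.181. The median of the 33 genes minus that of everything tested was -0.126, and it was -0.0738 without *aln-1* replicate 2, -0.0842 without WT replicate 1 and -0.134 without WT replicate 2. After centring on the hybridization controls, which shifts all genes of an array alike, the median was -0.0381 for the 33 genes and 0.0879 for everything tested. In these seedlings, fewer chloroplast-containing cells, fewer plastids per cell and less RNA per plastid cannot be told apart. Nor can these be told apart from differences between the arrays in scaling, labelling or RNA quality.

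**Figure D1:**
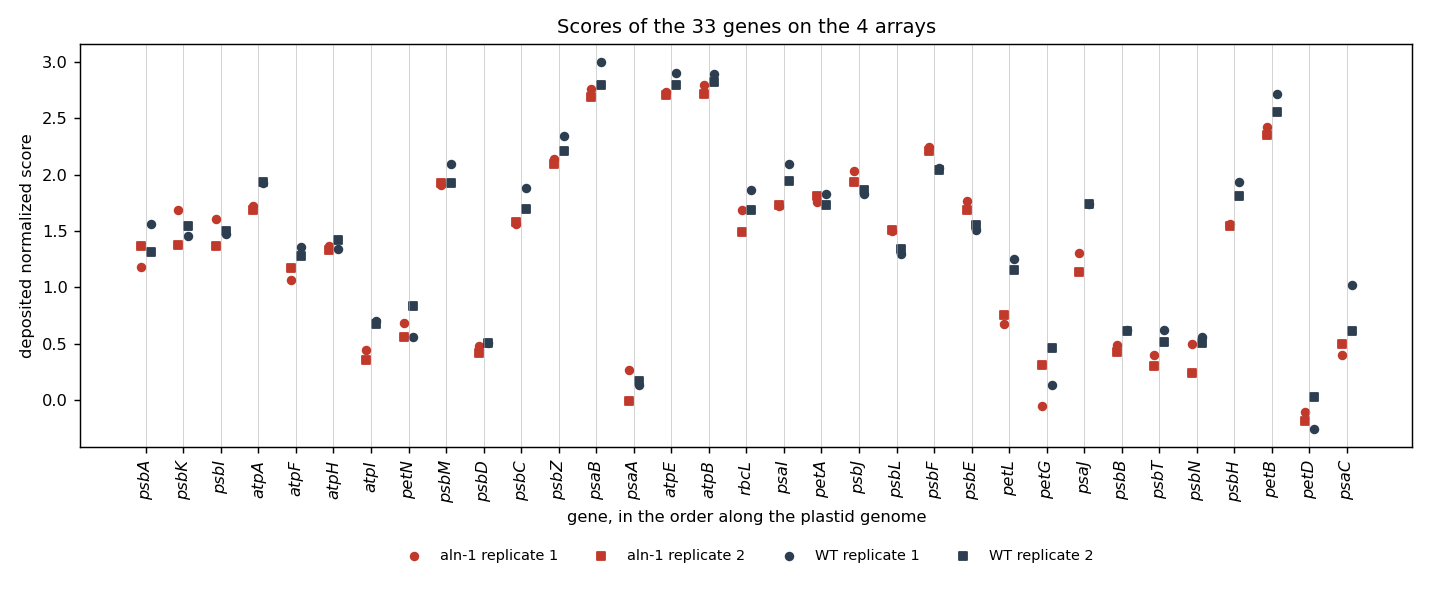
Deposited normalized score (vertical axis) of each of the 33 genes (horizontal axis, in plastid gene order) on the 4 arrays, *aln-1* in red and WT in dark blue, circles for replicate 1 and squares for replicate 2. The red points lie below both dark points for 20 genes and above them for the 4 genes *psbJ*, *psbL*, *psbF* and *psbE*.

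The *psbE* operon encodes small subunits of photosystem II (PSII). *psbE* and *psbF* encode the 2 chains that bind the heme of its cytochrome, and *psbL* and *psbJ* encode small membrane proteins beside it. *psbE* scored 1.76 and 1.69 in *aln-1* against 1.51 and 1.55 in WT. *psbF* scored 2.24 and 2.21 against 2.05 and 2.04. For *psbL* the scores were 1.5 and 1.51 against 1.29 and 1.34, and for *psbJ* 2.03 and 1.93 against 1.83 and 1.86. The genotypes did not overlap for any of the 4 genes, and the *aln-1* arrays were the higher ones each time, as for 25.4% of everything tested. A lower difference than that of *psbE*, *psbF*, *psbL* and *psbJ* was held by 88.71%, 87.71%, 87.95% and 83.95% of everything tested, so larger rises were common. The differences were 0.197 (standard error 0.0499) for *psbE*, 0.182 (standard error 0.0431) for *psbF*, 0.185 (standard error 0.0439) for *psbL* and 0.135 (standard error 0.0531) for *psbJ*. None passed the adjusted p of limma, with 0.0575, 0.0504, 0.0505 and 0.144 in the same order. Their median was 0.184, and it was 0.169 without WT replicate 1. After centring on the hybridization controls the median of the 4 was 0.304, and *psbE*, *psbF* and *psbL* passed with adjusted p-values of 0.0185, 0.0272 and 0.0249, in a fit that gave all genes the same standard error of 0.105. With the arrays centred on their chloroplast-encoded genes all 4 passed, with adjusted p-values from 0.0148 to 0.0288. That centring compares them with plastid genes that were mostly lower in *aln-1*, and it raised all differences by 0.114. Over everything tested it gave 3798 called higher and 822 lower, and centring on the hybridization controls gave 3079 and 709. All 4 had a difference above 0 in each of the 15 alternative settings. Several of these settings leave the differences as they were, and the centrings shift them upward. With no overlap between genotypes, leaving out 1 array cannot change the sign, so this count is not a test.

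Next to this operon on the plastid genome, and read from the other strand, lies the group *petL*-*petG*-*psaJ*, followed by the ribosomal protein genes *rpl33* and *rps18*. *petL* and *petG* encode small subunits of the cytochrome b6f complex, which passes electrons from PSII to photosystem I (PSI), and *psaJ* encodes a small subunit of PSI. *petL* scored 0.672 and 0.758 in *aln-1* against 1.25 and 1.16 in WT, a fall of the score with a difference of -0.489 (standard error 0.0571, adjusted p = 0.0112). *psaJ* scored 1.31 and 1.13 against 1.74 and 1.74, with a difference of -0.52 (standard error 0.0684, adjusted p = 0.0141). Of everything tested, 1.91% and 1.58% had a lower difference than *petL* and *psaJ*. *petG* scored -0.0523 and 0.310 against 0.137 and 0.466. Its arrays overlapped between genotypes, and its difference of -0.172 had a standard error of 0.159, with a 95% interval from -0.578 to 0.233. The 2 ribosomal protein genes downstream fell as well. *rpl33*, which scored 1.54 and 1.45 against 2.05 and 2.03, had a difference of -0.544 (adjusted p = 0.00743). *rps18* had scores of 0.856 and 0.808 against 1.42 and 1.38 and a difference of -0.569 (adjusted p = 0.00605). Thus 4 of these 5 genes fell, with differences between -0.569 and -0.489, and *petG* had the widest spread between replicates. The calls of *petL* and *psaJ* held in 13 of 15 alternative settings, several of which cannot change a difference. The 13 include centring on the chloroplast-encoded genes and on the hybridization controls (-0.369 and -0.4). The latter fit gave all genes the same standard error of 0.105. Both calls were lost in the fits with 1 WT array. *petL* had an adjusted p of 0.0991 without WT replicate 1 and 0.0546 without WT replicate 2, and *psaJ* had 0.114 and 0.0851, while the differences stayed between -0.534 and -0.443.

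A difference between 2 genes taken within an array does not move when all scores of the array are shifted alike. The score of *psbE* minus that of its neighbour *petL* was 1.09 and 0.933 in *aln-1* against 0.258 and 0.395 in WT, a difference between genotypes of 0.686. The arrays of the genotypes did not overlap in this quantity. An exact permutation test over the 4 arrays gave a two-sided p of 0.333, which is the smallest value that 2 arrays against 2 allow. The pair was chosen with the differences of both genes known, so these values are a description.

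**Figure D2:**
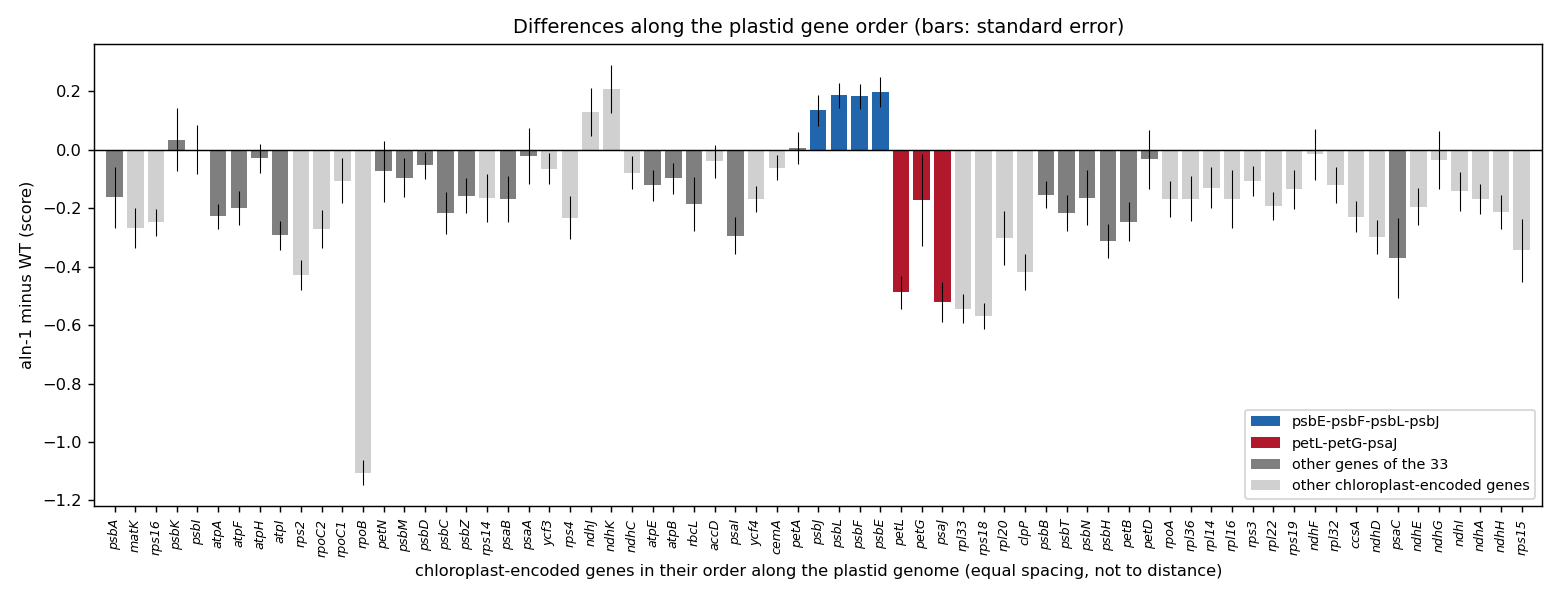
Difference in score, *aln-1* minus WT (vertical axis), of the 69 chloroplast-encoded genes measured, in gene order with equal spacing (horizontal axis), with the standard error of the limma fit as error bars. The blue bars of *psbJ*, *psbL*, *psbF* and *psbE* stand between 0.135 and 0.197, beside red bars at -0.489 for *petL*, -0.172 for *petG* and -0.52 for *psaJ*.

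PSI, which reduces ferredoxin, has 5 plastid-encoded subunits. All 5 had a difference below 0, with a median of -0.294 that became -0.167 without WT replicate 1. Of the 5, 2 fell (40%, with 8.17% over everything tested). *psaI*, which encodes a small membrane subunit like *psaJ*, scored 1.73 and 1.73 in *aln-1* against 2.1 and 1.94 in WT, with a difference of -0.294 (standard error 0.0635, adjusted p = 0.0408). *psaC*, whose product carries the terminal iron-sulphur clusters, scored 0.401 and 0.498 against 1.03 and 0.616. Its WT arrays lay far apart, the adjusted p was 0.128, and the difference of -0.371 became -0.167 without WT replicate 1. *psaC* is read within an operon of *ndh* genes, where its neighbour *ndhD* had a difference of -0.299 (adjusted p = 0.0307) and *ndhE* one of -0.195. The reaction centre genes *psaA* and *psaB* share an operon. *psaB* scored 2.76 and 2.69 against 2.99 and 2.79, a difference of -0.168 (adjusted p = 0.199) that became -0.0673 without WT replicate 1, -0.269 without WT replicate 2 and -0.0593 with quantile normalization. *psaA* scored 0.269 and -0.00428 against 0.14 and 0.171. The 2 *aln-1* arrays of *psaA* fell on both sides of the WT arrays, and its difference was -0.0229 with a 95% interval from -0.267 to 0.222. The scores of *psaB* lie close to the highest of any array, so the size of its difference is uncertain.

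Of the 15 *psb* genes, *psbH* fell (6.67%, with 8.17% over everything tested) and the other 14 passed in neither direction. The median difference was -0.0964, or -0.041 without WT replicate 1 and -0.159 without WT replicate 2. The genes of the reaction centre core were among those that were not called. *psbA*, which encodes the rapidly replaced D1 protein, scored 1.18 and 1.37 in *aln-1* against 1.56 and 1.32 in WT. The genotypes overlapped, and the difference was -0.163, or -0.041 without WT replicate 1. Its partner gene *psbD*, for the D2 protein, scored 0.486 and 0.422 against 0.507 and 0.509, with a difference of -0.054 (standard error 0.0462). *psbC*, which overlaps the end of *psbD* and encodes an inner antenna protein, scored 1.56 and 1.58 against 1.88 and 1.70, with a difference of -0.216 (adjusted p = 0.101), or -0.124 without WT replicate 1. *psbZ*, at the end of this operon, scored 2.14 and 2.09 against 2.34 and 2.21, with a difference of -0.158 (adjusted p = 0.131). All *psbD*, *psbC* and *psbZ* arrays of *aln-1* were below those of WT, with an operon median of -0.158 that became -0.095 without WT replicate 1. The small subunit genes *psbK* and *psbI* form an operon of their own, with differences of 0.0342 and 2.43e-05. Both *aln-1* arrays of *psbK*, 1.69 and 1.38, lay outside the WT range of 1.46 to 1.54, one on each side, and the same held for *psbI*, with 1.60 and 1.37 around 1.47 to 1.5. *psbM*, read on its own, had a difference of -0.0964, or -0.0122 without WT replicate 1.

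The *psbB*-*psbT*-*psbH*-*petB*-*petD* operon joins genes of PSII and of the cytochrome b6f complex. All 5 genes had a difference below 0, with a median of -0.217, and 1 of them fell (20%, with 8.17% over everything tested). *psbH*, which encodes a small phosphoprotein of PSII, scored 1.57 and 1.55 in *aln-1* against 1.93 and 1.81 in WT, with a difference of -0.314 (standard error 0.0577, adjusted p = 0.0286). *psbB*, which encodes the other inner antenna protein, scored 0.494 and 0.431 against 0.621 and 0.613, and the small subunit gene *psbT* scored 0.4 and 0.3 against 0.622 and 0.513. Neither overlapped between genotypes, and their differences of -0.155 and -0.217 had adjusted p-values of 0.0811 and 0.0751. *petB*, for cytochrome b6, scored 2.42 and 2.35 against 2.71 and 2.56, with a difference of -0.247 (adjusted p = 0.0665). *petD*, for subunit IV, had scores of -0.107 and -0.184, inside the WT range of -0.254 to 0.0303. All its scores were below the array medians. Only 32.8% of everything tested scored lower in WT, and the filter on low values left *petD* out. Its difference was -0.0338 with a standard error of 0.101. *psbN*, which lies between *psbT* and *psbH* on the opposite strand and encodes a protein needed for PSII assembly in tobacco, had a difference of -0.164 (adjusted p = 0.273), or -0.0331 without *aln-1* replicate 2.

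The remaining *pet* genes were not called. *petA*, which encodes cytochrome f, scored 1.76 and 1.81 in *aln-1* against 1.83 and 1.73 in WT, with a difference of 0.00494 and a 95% interval from -0.135 to 0.144. It ends a gene cluster that holds *accD*, *psaI*, *ycf4* and *cemA*, in which the differences were -0.0399, -0.294, -0.168 and -0.0618, so that *psaI* had the lowest difference of the cluster and was the gene called. *petN*, a small subunit gene read on its own, scored 0.687 and 0.558 against 0.559 and 0.835. Its genotypes overlapped, and its difference of -0.0748 had a standard error of 0.104. For the 6 *pet* genes together the median difference was -0.124, with *petL* as the member that fell (16.7%, with 8.17% over everything tested). This median rested on single arrays, with -0.194 without WT replicate 1 and -0.0263 without WT replicate 2.

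The 6 plastid-encoded subunit genes of the chloroplast ATP synthase all had a difference below 0, with a median of -0.161. Of the 6, 2 fell (33.3%, with 8.17% over everything tested). The 6 genes lie in a pair of operons. In the first, *atpI*, for subunit a of the membrane part, scored 0.443 and 0.359 in *aln-1* against 0.707 and 0.681 in WT, with a difference of -0.293 (standard error 0.0498, adjusted p = 0.0241). *atpA*, for the alpha subunit of the catalytic head, scored 1.72 and 1.69 against 1.93 and 1.94, with a difference of -0.229 (standard error 0.0432, adjusted p = 0.0302). *atpF*, for a stalk subunit, scored 1.07 and 1.17 against 1.36 and 1.28, with a difference of -0.199 (adjusted p = 0.077). *atpH*, for the proton-carrying ring, lies between *atpI* and *atpF* and scored 1.36 and 1.33 against 1.34 and 1.42. Its genotypes overlapped, and its difference of -0.0302 had a 95% interval from -0.157 to 0.0965. Upstream in the same operon, the ribosomal protein gene *rps2* scored 1.44 and 1.36 against 1.86 and 1.80, with a difference of -0.429 (adjusted p = 0.012).

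In the second operon, *atpB*, for the beta subunit, scored 2.79 and 2.71 in *aln-1* against 2.89 and 2.82 in WT. *atpE*, for the epsilon subunit, scored 2.74 and 2.71 against 2.90 and 2.79. Both genes had *aln-1* arrays below the WT arrays, with differences of -0.0986 (adjusted p = 0.252) and -0.123 (adjusted p = 0.18). Without WT replicate 1 these were -0.0622 and -0.0687. With quantile normalization they were 0.0213 for *atpB* and -0.0339 for *atpE*. The scores of both lie near the upper end of the arrays, where the size of a difference is uncertain. *rbcL*, which encodes the large subunit of Rubisco, scored 1.69 and 1.49 against 1.86 and 1.69. The highest *aln-1* score and the lowest WT score were almost equal, and the difference of -0.186 (standard error 0.0924) had an adjusted p of 0.218. It was -0.101 without WT replicate 1, and leaving out 1 of the *aln-1* arrays gave -0.287 (replicate 1) or -0.0855 (replicate 2).

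**Figure D3:**
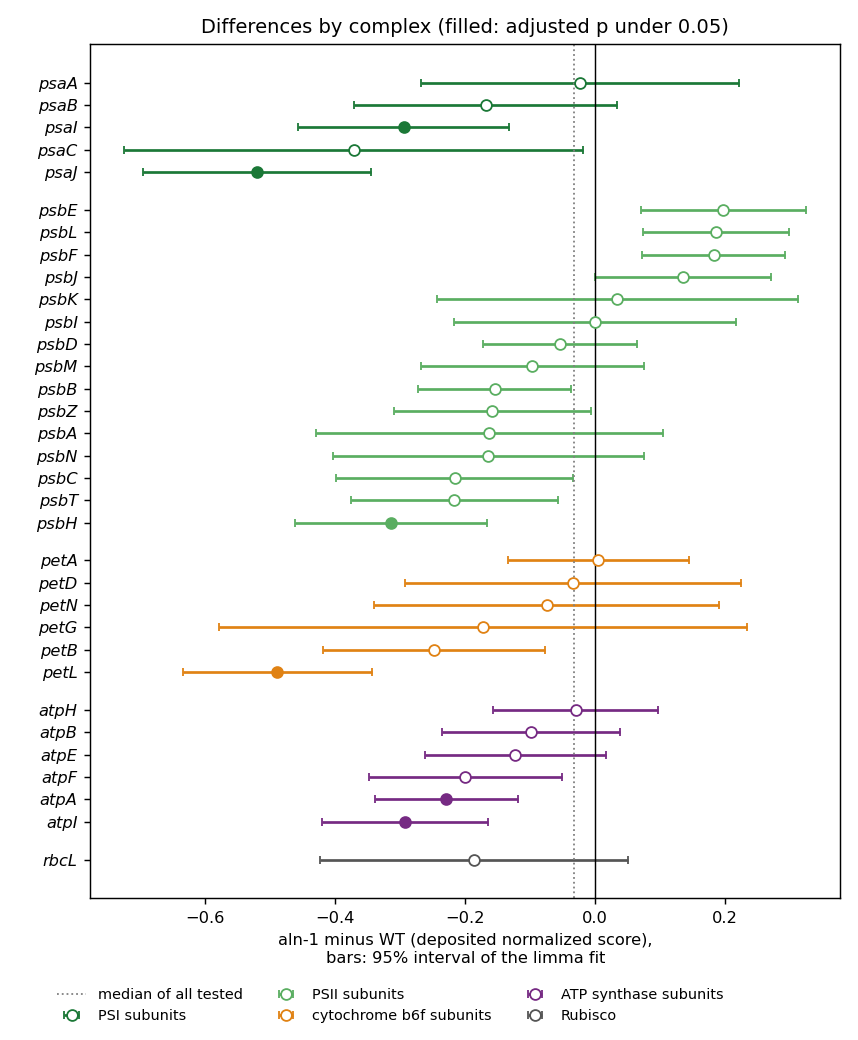
Difference in score, *aln-1* minus WT (horizontal axis), of the 33 genes grouped by complex, with the 95% interval of the limma fit as bars and filled circles for an adjusted p under 0.05. The filled circles lie between -0.52 (*psaJ*) and -0.229 (*atpA*), and the dotted line at -0.032 marks the median of everything tested.

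The calls of *atpA*, *atpI*, *psbH* and *psaI* depended on the scaling, unlike those of *petL* and *psaJ*. All of the former held with quantile normalization and with centring on array medians. These same calls also depended on *aln-1* replicate 2. Without it the differences were -0.211 for *atpA*, -0.251 for *atpI*, -0.305 for *psbH* and -0.294 for *psaI*. Centring on the chloroplast-encoded genes left *petL* and *psaJ* as the called falls, and centring on the hybridization controls did the same. That last fit gave all genes the same standard error of 0.105. After the latter the differences were -0.109 for *atpA* (adjusted p = 0.56), -0.173 for *atpI* (adjusted p = 0.297), -0.194 for *psbH* (adjusted p = 0.224) and -0.174 for *psaI* (adjusted p = 0.292). Neither WT array could be left out without losing all 6 falls, and such fits also lower the counts over everything tested, to 71 higher and 61 lower without WT replicate 1.

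**Figure D4:**
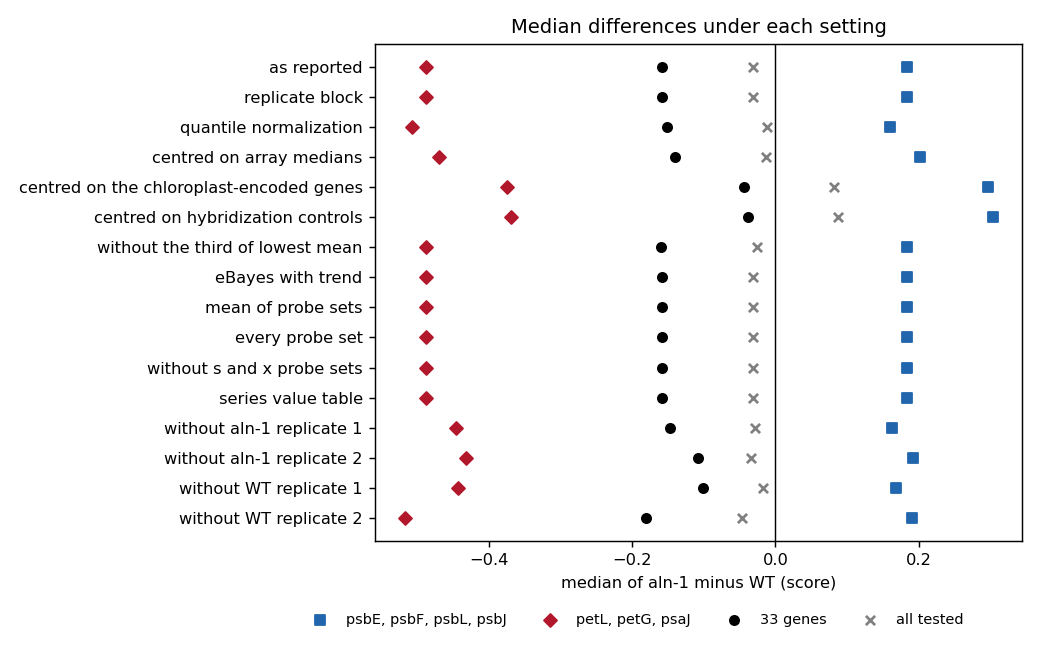
Median difference in score, *aln-1* minus WT (horizontal axis), under the reported setting and 15 alternatives (vertical axis), for the 4 genes of the *psbE* operon (squares), *petL*, *petG* and *psaJ* (diamonds), the 33 genes (circles) and everything tested (crosses). The squares stay between 0.16 and 0.304 and the diamonds between -0.518 and -0.369.

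The lower scores were not particular to the photosynthesis genes of the plastid. Of the 36 other chloroplast-encoded genes measured, 34 had a difference below 0 (94.4%, with 60.1% over everything tested), with a median of -0.169. Among the 36, 8 fell (22.2%, with 8.17% over everything tested) and 0 rose (0 also at an unadjusted p under 0.05). Both *aln-1* arrays lay below both WT arrays for 27 of the 36 (75%, with 41.4% over everything tested). The 2 genes above 0 were *ndhJ* (0.128) and *ndhK* (0.207), neighbours in an operon of the NADH dehydrogenase-like complex. All 15 measured genes of the plastid ribosome, of 21 listed, were below 0. Of the 15, 4 fell (26.7%, with 8.17% over everything tested), namely *rps18*, *rpl33*, *rps2* and *rps16*. Of the 4 core subunit genes of the plastid-encoded RNA polymerase, *rpoB* fell, from 0.839 and 0.849 in WT to -0.266 and -0.255 in *aln-1* (difference -1.1, adjusted p = 0.00153), while *rpoC1* and *rpoC2* in the same operon had differences of -0.106 and -0.272 and were not called.

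The nuclear genes of the same complexes were thinly covered, with 10 of 59 listed genes on a probe set with 1 gene. Of these, 9 had a difference below 0, with a median of -0.152, and 2 fell. The shares over everything tested were 60.1% below 0 and 8.17% called lower. *PSBY*, for a small subunit of PSII, scored 2.13 and 1.96 in *aln-1* against 2.37 and 2.32 in WT, with a difference of -0.304 (adjusted p = 0.0463). *RCA*, for Rubisco activase, scored 2.52 and 2.39 against 2.77 and 2.72, with a difference of -0.292 (adjusted p = 0.039). *ATPC1*, for the gamma subunit of the ATP synthase, was not called, with -0.261 (adjusted p = 0.0597). The antenna gene *LHCB4.2* was the one above 0, at 0.193 (adjusted p = 0.12), beside -0.164 for its relative *LHCB4.1*. Nuclear genes for plastid sigma factors and phage-type polymerases, for proteins that accompany the plastid polymerase and for plastid RNA processing were listed too, and no member of these lists was analysed here.

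The few measured markers of green and of root tissue also had shifted scores, and not all of them were called. Over everything tested, 60.1% had a difference below 0, 8.17% were called lower and 7.42% higher. Of 17 green leaf markers, 3 were measured, and all 3 had lower scores in *aln-1*. Their mean score was 2.4 and 2.24 in *aln-1* against 2.64 and 2.6 in WT. Among them *PRK*, an enzyme of the Calvin cycle, had a difference of -0.429 (adjusted p = 0.0314), *RCA* fell as given above and *LHCB4.1* was not called. *RCA* and *LHCB4.1* are also among the nuclear genes counted above. Of 12 root markers, 3 were measured and all had higher scores, with means of 0.869 and 0.976 against 0.73 and 0.763. *EXPA7*, expressed in root hairs, rose by 0.25 (adjusted p = 0.0431), while *EXPA18* and *PYK10* had differences of 0.236 and 0.0425 and were not called. The part of tissue composition in the results for the chloroplast genes was not tested.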

How the data were processed

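ATH1 arrays were hybridised with labelled RNA from aerial parts of *aln-1* and WT seedlings, with 2 arrays per genotype. The authors deposited scores from the SuperNORM service, which fits a lognormal model with 3 parameters to the raw intensities of arrays already deposited. Its version, background step and log base were not given in the sources used here. Also in the file are p-values of the authors' own comparison, for the group and for an interaction, which were not used.

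Of 22810 probe sets, 64 controls and 842 without values were left out. Probe sets were named from the platform annotation through gene IDs of the RefSeq table of TAIR10.1 (13436 of 13513 probe sets with 1 gene matched). A gene was represented by its probe set with the highest mean, which left 21754 genes or probe sets. Precision is limited by the number of arrays. A linear model with genotype alone was fitted per gene (limma 3.58.1, lmFit and eBayes, under R 4.3.3), and p-values were adjusted over everything tested by Benjamini-Hochberg. The methods name a two-way ANOVA without stating its second factor, and it was not repeated here. The fit was checked on simulated data.

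All 33 genes are named, and of each other list at most 4 genes with the smallest p, apart from the operon neighbours *accD*, *ycf4*, *cemA*, *ndhJ* and *ndhK*, which were named after their values were seen. The genes, lists and tests were chosen with earlier results of these data known. Members of an operon share transcripts and are not replicates. As alternatives, the fit was repeated with the replicate number as a block, with quantile normalization, centring on array medians or on the chloroplast-encoded genes, a filter on low values, eBayes with a trend, other treatments of probe sets, the series' value table and leaving out each array. Centring on the hybridization controls was added after seeing the data.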

Additional observations from a re-analysis of the deposited data

How the results depend on the processing

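The number of genes called higher among the 33 was 0 as reported, 1 with quantile normalization or with eBayes with a trend, 3 with centring on array medians, with the filter on low values or with centring on the hybridization controls, and 4 with centring on the chloroplast-encoded genes, all of them in the *psbE* operon. The number called lower was 6 as reported, 7 with quantile normalization (*petB* added), and 2 with centring on the hybridization controls or on the chloroplast-encoded genes. Their median difference was -0.158 as reported, -0.0445 with centring on the chloroplast-encoded genes and -0.0381 with centring on the hybridization controls. These scalings moved the median of everything tested by 0.114 and 0.12, and the counts over everything tested, 1615 higher and 1778 lower, to 3798 and 822 and to 3079 and 709. Leaving out 1 array gave 0 to 6 genes called lower, with 2 without *aln-1* replicate 2 and 0 without either WT replicate. The median ran from -0.181 to -0.101, and the counts over everything tested from 71 to 2114 higher and from 61 to 2372 lower. Such fits have fewer degrees of freedom and assume that the lone array varies like the other genotype.

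Differences of uncalled genes changed sign as follows. With quantile normalization they were 0.00484 for *petD*, 0.0213 for *atpB*, -0.00478 for *petA* and -0.0311 for *psbI*. With centring on the chloroplast-encoded genes and on the hybridization controls they were 0.0798 and 0.0861 for *petD*, 0.0388 and 0.0452 for *petN*, 0.0171 and 0.0235 for *psbM*, 0.0595 and 0.0659 for *psbD*, 0.0907 and 0.097 for *psaA*, 0.015 and 0.0213 for *atpB*, and 0.0834 and 0.0897 for *atpH*. Without 1 array, sign changes were seen for *petG* (-0.354 to 0.00883), *psbI* (-0.118 to 0.118), *psbK* (-0.12 to 0.188), *petD* (-0.176 to 0.108), *psaA* (-0.16 to 0.114), *petA* (-0.0444 to 0.0543), *petN* (-0.212 to 0.0628) and *atpH* (-0.0704 to 0.00996). With the replicate number as a block, 8 genes were called lower, with *psbT* and *petB* added, and 0 higher, and the median stayed at -0.158. The labels do not say that the numbers pair the arrays, and the deviations of same-numbered arrays had a correlation of 0.0413 across genes. The cause of these dependencies was not tested.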
